A study of Mus musculus with 19 samples.

Results

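The interferon response and antigen presentation genes followed here are 37 named genes of 38424 entries in a gene expression table of differentiating mouse embryonic stem cells. They were taken by name. The set comprises 4 sensors of double-stranded RNA, 4 transcription factors, ISG15 and its protease, 3 genes of the OAS family, 3 of the IFIT family, 4 membrane restriction factors, 9 other interferon-stimulated genes and 8 genes of antigen presentation. All 37 are in the table, and 30 of them passed a filter of at least 1 FPKM (read fragments adjusted for transcript length and library size) in at least 2 libraries, which left 14942 entries for testing. The study measured polyadenylated RNA in 19 libraries after knockdown of long non-coding RNAs that lie beside developmental genes, and asked which genes differ from cells with a control hairpin. Every library, control or knockdown, came from cells with a short hairpin RNA. Cells without a hairpin were not analysed here.

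In LIF withdrawal, CJ7 cells (129S4/SvJae) at day 4 carried a hairpin against Evx1as (2 libraries) or a control (1 library). CJ9 cells of the same strain carried a hairpin against the coding gene EVX1 (2 libraries) or a control (1 library) at day 4, against Fendrr (2 libraries) or a control (2 libraries) at day 5, and against Lhx1os (1 library) or a control (1 library) at day 6. The medium held fetal calf serum and lacked LIF, the cytokine that keeps these cells undifferentiated. In retinoic acid culture, 46c cells in serum-free N2B27 medium with 5 nM retinoic acid for 4 days carried a hairpin against Nr2f1as (2 libraries), Sox21os (1 library) or Pou3f3os (2 libraries), or a control (2 libraries). Line, medium, retinoic acid and target differ together between both kinds of culture. It is not stated whether the numbered libraries of a group were grown separately, so a p-value here reflects the spread among these libraries alone, which may be technical.

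Sensors such as RIG-I (Ddx58) and MDA5 (Ifih1) recognise double-stranded RNA in the cytoplasm and lead to the secretion of type I interferon. Interferon binds its receptor and activates a complex that holds STAT2 and IRF9 and binds the interferon-stimulated response element of antiviral genes. Type II interferon acts at gamma-activated sites, induces IRF1, and raises the immunoproteasome, the TAP peptide transporter and the class I major histocompatibility molecules that show peptides to T cells. Pluripotent stem cells are known for a weak interferon response and low class I molecules, which increase as the cells differentiate.

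The promoters of 6 members on which the results below turn are shown, since they carry the elements through which this response is known to act. Each runs from 250 bases before to 50 bases after the start site in the RefSeq annotation of GRCm38.p6, 5′ to 3′ on the strand of the gene. Capitals mark the interferon-stimulated response element (GAAA, any 2 bases, then GAAA again, on either strand) in the first 5 sequences, and the gamma-activated site (TTCNNNGAA on either strand) in Irf1.
Isg15 (chr4:156200769-156201068, minus strand): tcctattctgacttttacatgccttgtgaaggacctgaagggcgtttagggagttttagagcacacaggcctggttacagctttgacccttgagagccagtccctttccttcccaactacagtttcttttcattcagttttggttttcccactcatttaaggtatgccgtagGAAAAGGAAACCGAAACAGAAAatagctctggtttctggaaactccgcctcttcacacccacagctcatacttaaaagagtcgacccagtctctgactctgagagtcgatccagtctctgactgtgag
Oas1a (chr5:120907476-120907775, minus strand): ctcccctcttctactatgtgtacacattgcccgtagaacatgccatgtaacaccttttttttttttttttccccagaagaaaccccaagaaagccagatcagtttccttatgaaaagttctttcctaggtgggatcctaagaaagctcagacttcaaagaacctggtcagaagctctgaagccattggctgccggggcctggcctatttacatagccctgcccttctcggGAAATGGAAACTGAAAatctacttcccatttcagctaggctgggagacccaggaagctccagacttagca
Bst2 (chr8:71537423-71537722, minus strand): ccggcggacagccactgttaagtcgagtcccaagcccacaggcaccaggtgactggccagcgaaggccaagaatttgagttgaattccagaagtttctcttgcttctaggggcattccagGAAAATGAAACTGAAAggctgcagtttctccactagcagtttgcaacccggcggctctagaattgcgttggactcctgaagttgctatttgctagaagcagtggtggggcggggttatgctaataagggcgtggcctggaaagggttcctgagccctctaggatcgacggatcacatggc
Gbp2 (chr3:142620413-142620712, plus strand): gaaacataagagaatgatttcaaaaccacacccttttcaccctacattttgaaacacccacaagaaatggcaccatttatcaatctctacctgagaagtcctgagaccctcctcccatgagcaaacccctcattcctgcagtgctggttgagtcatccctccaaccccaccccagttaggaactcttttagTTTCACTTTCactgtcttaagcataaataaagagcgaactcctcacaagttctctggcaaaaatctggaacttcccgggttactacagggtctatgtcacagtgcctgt
B2m (chr2:122147437-122147736, plus strand): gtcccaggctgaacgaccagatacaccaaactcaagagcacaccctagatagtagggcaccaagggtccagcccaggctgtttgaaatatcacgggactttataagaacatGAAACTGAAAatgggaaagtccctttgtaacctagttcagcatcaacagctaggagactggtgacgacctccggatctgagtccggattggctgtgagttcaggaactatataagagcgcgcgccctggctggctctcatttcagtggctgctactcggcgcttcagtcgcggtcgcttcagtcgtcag
Irf1 (chr11:53769764-53770063, plus strand): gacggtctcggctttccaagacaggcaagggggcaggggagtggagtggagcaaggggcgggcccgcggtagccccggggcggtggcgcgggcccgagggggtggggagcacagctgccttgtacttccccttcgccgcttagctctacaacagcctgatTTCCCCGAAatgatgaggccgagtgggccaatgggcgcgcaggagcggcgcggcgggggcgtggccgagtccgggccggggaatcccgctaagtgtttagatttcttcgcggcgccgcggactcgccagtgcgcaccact
In Isg15, Oas1a and Bst2 the capitals hold 3, 2 and 2 overlapping matches. The match in Gbp2 lies on the opposite strand. Of the 37 members, 30 had a promoter window. The response element stood in 14 of these (46.7%), against 3.99% of 27025 genes with a window. The gamma-activated site stood in 7 (23.3%), against 9.55% of all genes. Bst2, Oas1a, Eif2ak2 and Ifitm3 held both, and in Bst2 the gamma-activated site overlaps the response element. A match describes letters in this window and is no evidence of binding.

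**Figure D1:**
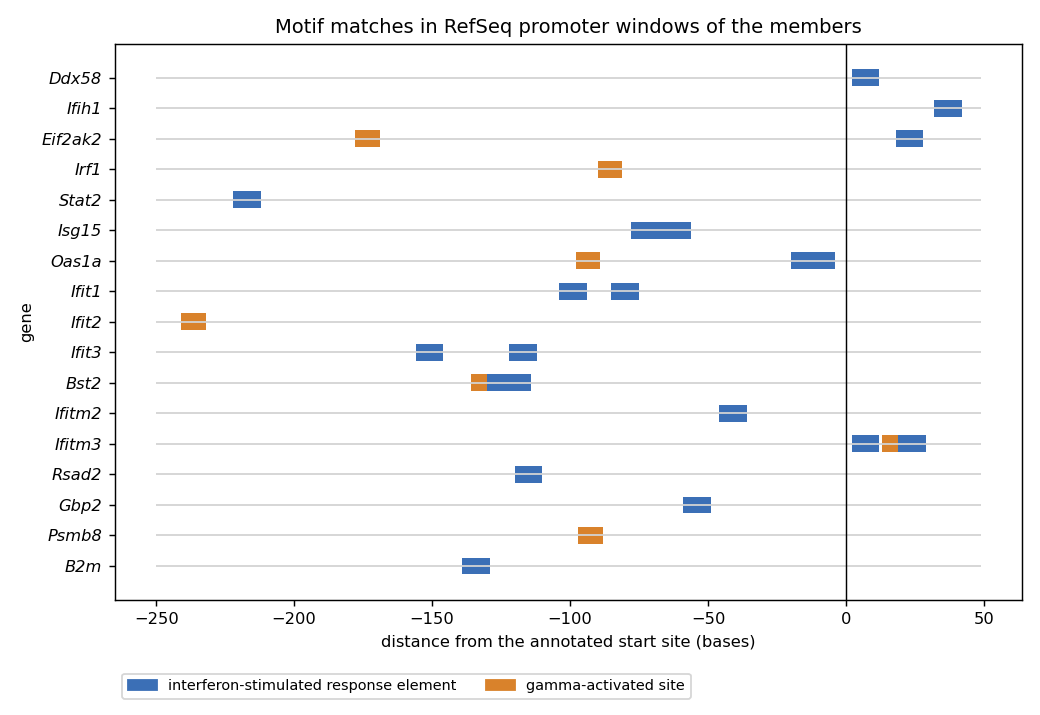
Position of the matches in bases from the annotated start site (x axis) for each member with a match (y axis). Bars are the response element and the gamma-activated site. In Isg15 the matches of the response element lie between -78 and -57, and in Ifitm3 they lie after the start site, between 2 and 28.

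Libraries summed to between 559050 and 655315 FPKM. The table holds no read totals, so depth is known only as an estimate from the most frequent ratio between low values of each library and those of shCtrl_Fendrr replicate 1. It ranged from 0.844 to 1.161, and 18.2% to 20.9% of the low entries stood at that ratio. Of 5 entries that could be named for a target, 4 were lower in every knockdown library than in every control of the same experiment. The exception was 2610017I09Rik, the Pou3f3os entry, with 2.40 and 4.13 FPKM in the libraries labelled shPou3f3os against 5.20 and 1.98 FPKM in shCtrl_RA. The Lhx1os entry, 1500016L03Rik, counted as lower at 0 FPKM in shLhx1os against 0.0883 FPKM in shCtrl_Lhx1os. With 1 library per arm and values this near the floor, it cannot show whether the knockdown worked. The 8 embryonic stem cell markers summed to 132 to 666 FPKM in retinoic acid libraries and 528 to 2261 FPKM in LIF-withdrawal libraries. In shCtrl_RA replicate 2 Pou5f1 was at 282 FPKM, against 43.5 FPKM in replicate 1, so the 2 retinoic acid controls stand apart from each other. Of 11 leukocyte markers, 5 (Ptprc, Itgam, Tyrobp, Fcer1g and Cd3e) stayed under 1 FPKM in every library, and the other 6 reached it. The list summed to between 7.81 and 51.7 FPKM, the highest in shEvx1as.

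In the mm9 coordinates of the table, Isg15 lies at chr4:155573533-155574927, Usp18 at chr6:121195924-121220935, Gbp2 at chr3:142283627-142300972 and B2m at chr2:121973423-121978818. The members were expressed at very different levels. Ifitm2 and Ifitm3, membrane proteins that restrict virus entry, had medians of 788 and 98.5 FPKM over the 7 retinoic acid libraries and of 571 and 268 FPKM over the 12 LIF-withdrawal libraries. Ifitm1, of the same family, had a median of 123 FPKM in retinoic acid culture and 355 FPKM in LIF withdrawal. Class I heavy chains H2-K1 and H2-D1 had medians of 43.6 and 34.9 FPKM in retinoic acid culture and of 71.0 and 50.7 FPKM in LIF withdrawal. At the other end, 7 members never reached 1 FPKM: Dhx58 (LGP2, a regulator of the RNA sensors), Irf7 (the factor that amplifies type I interferon), Oasl1, Ifit1, Ifit3, Rsad2 (viperin, an antiviral radical enzyme) and Nlrc5 (the transactivator of class I genes). The highest value among these 7 was 0.881 FPKM, of Ifit1 in shCtrl_Lhx1os, and Rsad2 was listed at 0 in 14 of 19 libraries. A retinoic acid library had 16 to 20 of the 37 members at 1 FPKM or more, and a LIF-withdrawal library 22 to 30.

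**Figure D2:**
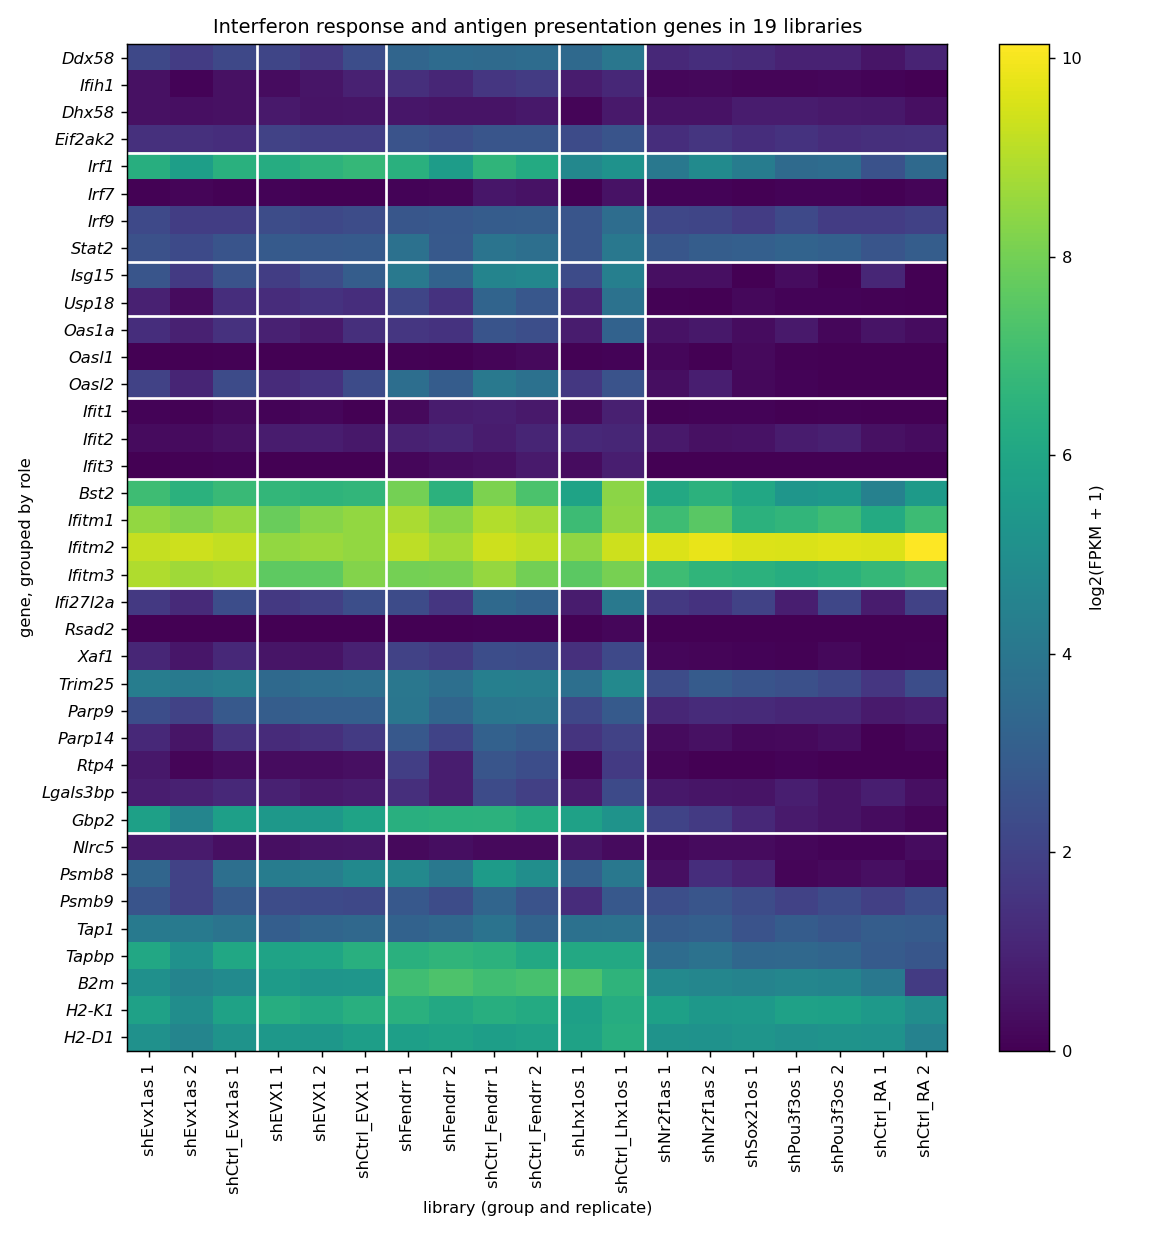
Level of the 37 members, as log2(FPKM + 1), in each of the 19 libraries (x axis, group and replicate), with genes grouped by role (y axis). The 7 retinoic acid libraries on the right are low for most members, among them Gbp2 and Psmb8, and high for Ifitm2.

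The members stood lower in the retinoic acid controls (2 libraries) than in the LIF-withdrawal controls (5 libraries). By limma with Benjamini-Hochberg adjustment over 14942 entries at a threshold of 0.05, 27 of the 30 tested members were lower and 1, Ifitm2, was higher. The background was wide, since 59.8% of all entries were called in this comparison, 29.5% as lower and 30.3% as higher. Of the 30 tested members, 9 passed the filter through LIF-withdrawal libraries alone and so had to differ. Among the 20 members that reached 1 FPKM in 2 or more libraries of each culture, 17 were called lower and 1 higher, against 27.9% of 12421 such entries called lower. With the day-4 LIF-withdrawal controls alone as the baseline, 21 members were lower and 1 higher, where 49.1% of all entries were called. Cell type markers differed as well: the 7 early mesoderm markers summed to 3.09 to 4.67 FPKM in shCtrl_RA and 218 to 578 FPKM in the LIF-withdrawal controls, and the 6 neural progenitor markers to 215 to 286 FPKM in shCtrl_RA and 6.81 to 54.0 FPKM in the LIF-withdrawal controls. Their part in the members' values was not tested. Line, medium, day and retinoic acid cannot be told apart here, and in bulk RNA fewer cells of a type and less RNA per cell cannot be told apart either.

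Gbp2, a GTPase induced by interferon gamma, was at 0.264 and 0.108 FPKM in shCtrl_RA, against 51.9, 58.7, 91.0, 74.7 and 35.7 FPKM in the controls shCtrl_Evx1as, shCtrl_EVX1, shCtrl_Fendrr 1, shCtrl_Fendrr 2 and shCtrl_Lhx1os. Its log2 change was -5.56 ± 0.24 (SE, adjusted p = 3.70e-08 by limma), on the log2(FPKM + 1) scale, which understates the change of low genes. Psmb8, a catalytic subunit of the immunoproteasome, was at 0.336 and 0.120 FPKM in shCtrl_RA, against 11.9, 27.0, 46.0, 31.7 and 15.6 FPKM in the same order of LIF-withdrawal controls (log2 change -4.17 ± 0.35, adjusted p = 3.45e-06 by limma). The groups did not overlap for either gene. Tapasin (Tapbp), which loads peptides onto class I molecules, averaged 6.09 ± 0.672 FPKM (SD, n = 2) in shCtrl_RA and 75.1 ± 10.9 FPKM (n = 5) in the LIF-withdrawal controls. Irf1 averaged 7.51 ± 3.63 FPKM in shCtrl_RA and 79.6 ± 28.4 FPKM in the LIF-withdrawal controls, and Isg15 averaged 0.552 ± 0.781 and 15.9 ± 9.22 FPKM, shCtrl_RA first. Their log2 changes were -3.40 for Tapbp, -3.17 for Irf1 and -3.12 for Isg15, all called.

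Ifitm2 went the other way, with 772 and 1130 FPKM in shCtrl_RA against 588, 363, 662, 575 and 664 FPKM in the LIF-withdrawal controls (log2 change 0.78 ± 0.16, adjusted p = 0.00132 by limma). Its neighbours Ifitm1 and Ifitm3 fell, with means of 97.6 ± 36.3 and 120 ± 17.0 FPKM in shCtrl_RA and of 402 ± 61.0 and 329 ± 81.1 FPKM in the LIF-withdrawal controls. By role, among the 20 members detected in both cultures, both sensors, 2 of 3 transcription factors, 3 of 4 membrane factors, 4 of 4 other interferon-stimulated genes and 6 of 7 antigen presentation genes were called lower. The members of the ISG15, OAS and IFIT groups are not among these 20. H2-K1 and H2-D1 fell less, by 0.99 and 0.93 on the log2 scale. The members not called were Stat2 (log2 change -0.51, adjusted p = 0.0632 by limma) and Psmb9, another immunoproteasome subunit (log2 change -0.54, adjusted p = 0.0781 by limma). Tapbp and H2-K1 overlap the entries AK140218 and XLOC_009777, whose mean levels were 22.3 and 21.4 FPKM, and class I, Ifitm and Oas1 genes have close copies, so their reads may have been shared.

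Among the CJ9 controls, levels differed between days of harvest, and the day cannot be told apart from the experiment. Of the 30 tested members, 11 were in rising order over days 4, 5 and 6, as were 17.9% of all entries, and 10 more had their lowest level at day 4, as had 21.7% of all entries. Bst2, tetherin, which holds budding virus at the membrane, was at 101 FPKM at day 4, 281 and 153 FPKM at day 5 and 331 FPKM at day 6. Usp18, which removes ISG15 from proteins and dampens interferon signalling, was at 1.5, then 8.65 and 5.68, then 13.3 FPKM. B2m, the light chain of class I molecules, was at 39.7 FPKM at day 4, 131 and 146 FPKM at day 5 and 94.5 FPKM at day 6. Only Irf1 among the tested members was in falling order, as were 12.7% of all entries, with 107 FPKM at day 4, 97.2 and 71.7 FPKM at day 5 and 34.6 FPKM at day 6. Across all 19 libraries, 9 tested members had their highest level in shCtrl_Fendrr replicate 1, 4 in shCtrl_Fendrr replicate 2 and 9 in shCtrl_Lhx1os. In the same controls fibroblast markers summed to 20.3 FPKM at day 4, 32.7 to 40.6 FPKM at day 5 and 57.9 FPKM at day 6, and embryonic stem cell markers to 1196, 739 to 888 and 645 FPKM in the same order, and whether they bear on the members' values was not tested.

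In shFendrr, most members lay below the control, but none passed the adjusted test. By limma 0 of 30 tested members were called, where 0.147% of all entries were, and 9 members had an unadjusted p under 0.05, all lower, where 4.26% of all entries did. Of the 30, 25 were lower and 5 higher, with a median log2 change of -0.38 against 0 over all entries. In 16 members both shFendrr libraries lay below both controls, which held for 15.7% of all entries. The loop of ISG15 and its protease had a median of -1.10 and the tested OAS genes -0.81, while the antigen presentation genes had -0.02.

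Oas1a, whose product makes the 2′-5′ oligoadenylate that activates RNase L, was at 2.06 and 1.82 FPKM in shFendrr against 5.23 and 4.39 FPKM in shCtrl_Fendrr. Both shFendrr libraries were low and the groups did not overlap, and its adjusted p of 0.224 was the smallest among the members by limma (log2 change -0.98 ± 0.21). Usp18 was at 3.33 and 1.82 FPKM in shFendrr against 8.65 and 5.68 FPKM in shCtrl_Fendrr (log2 change -1.20 ± 0.26, adjusted p = 0.232 by limma). Isg15, the ubiquitin-like modifier whose promoter holds 3 overlapping matches of the response element, was at 16.2 and 8.0 FPKM in shFendrr against 23.1 and 24.8 FPKM in shCtrl_Fendrr (log2 change -1.0 ± 0.41, adjusted p = 0.680 by limma). The groups were apart for both genes. Ifi27l2a was at 3.93 and 2.07 FPKM in shFendrr against 10.1 and 8.45 FPKM in shCtrl_Fendrr, the largest drop among the members on the log2 scale (-1.40 ± 0.45, adjusted p = 0.559 by limma). Rtp4 was at 2.67 and 0.737 FPKM in shFendrr against 5.35 and 4.21 FPKM in shCtrl_Fendrr, and Lgals3bp, a secreted partner of galectin-3, at 1.61 and 0.746 FPKM against 3.97 and 2.83 FPKM, with shFendrr first.

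The second shFendrr library was the lower one for 21 of 30 members. Bst2 was at 261 and 90.5 FPKM in shFendrr, a wide gap, against 281 and 153 FPKM in shCtrl_Fendrr. Without shFendrr replicate 1, 4 members were called by limma, where 1.55% of all entries were, against 0.147% with it. They were Stat2 and, with adjusted p between 0.0132 and 0.0362, Usp18, Rtp4 and Lgals3bp. The median change of the members was then -0.59, and without shFendrr replicate 2 it was -0.24; without shCtrl_Fendrr replicate 1 it was also -0.24. B2m was at 131 and 158 FPKM in shFendrr against 131 and 146 FPKM in shCtrl_Fendrr, and Tapbp at 85.5 and 98.7 FPKM against 90.2 and 68.8 FPKM, both with overlapping groups. Of the 7 early mesoderm markers 5 were lower and 2 higher in the same libraries, with a median log2 change of -0.28. Hand1 and Foxf1 were called lower (log2 changes -1.55 and -1.65, adjusted p = 0.0489 and 0.0339 by limma). The 7 markers summed to 190 to 395 FPKM in shFendrr and 359 to 386 FPKM in shCtrl_Fendrr, so these sums overlap. All 4 tested endothelial markers were lower and the 6 summed to 6.07 to 12.01 FPKM in shFendrr and 15.6 to 20.1 FPKM in shCtrl_Fendrr, while neural progenitor markers summed to 28.7 to 47.9 FPKM in shFendrr and 14.5 to 19.4 FPKM in shCtrl_Fendrr. Of the 5 tested neural progenitor markers 4 were higher and 1 lower, but their median log2 change was only 0.04. Of 9 tested NF-kB targets 8 were higher, 3 of them at an unadjusted p under 0.05, and 0 were called by limma. Their part in the members' values was not tested.

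In shEvx1as, 0 of 30 members were called by limma, where 0.00669% of all entries were, and 2 members, Usp18 and Parp9, had an unadjusted p under 0.05, where 4.38% of all entries did. The median log2 change was -0.30 against 0.05 over all entries, with 23 members lower and 7 higher, and 18 had both shEvx1as libraries below the control, which held for 26.3% of all entries. Psmb8 was at 8.81 and 2.98 FPKM in the shEvx1as libraries, against 11.9 FPKM in shCtrl_Evx1as, and Oasl2 at 3.04 and 1.05 FPKM against 3.92 FPKM. Parp9, an ADP-ribosyltransferase partner of the ubiquitin ligase Dtx3l, was at 4.26 and 2.96 FPKM in the shEvx1as libraries, against 6.05 FPKM in shCtrl_Evx1as, and Usp18 at 0.882 and 0.229 FPKM against 1.49 FPKM. Ifi27l2a was at 2.24 and 1.33 FPKM in the shEvx1as libraries, against 4.30 FPKM in shCtrl_Evx1as. Of the 7 early mesoderm markers 6 were also lower, with a median log2 change of -0.73, and they summed to 54.6 to 156 FPKM in shEvx1as and 218 FPKM in shCtrl_Evx1as. The 11 leukocyte markers summed to 38.6 to 51.7 FPKM in shEvx1as and 26.3 FPKM in shCtrl_Evx1as. What the markers contribute to the members' values was not tested.

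The replicates of shEvx1as differed for these genes. Of 25 members at 1 FPKM, 24 were lower in replicate 2 than in replicate 1, by a median of 0.49 on the log2 scale, and Gbp2 (52.8 and 23.8 FPKM) and Psmb8 differed more than 2-fold. Without replicate 2 the median change of the members was -0.06, and without replicate 1 it was -0.46. Tap1, a subunit of the peptide transporter, lay above its control in both libraries, at 17.0 and 16.6 FPKM in the shEvx1as libraries, against 13.9 FPKM in shCtrl_Evx1as, as did Irf9, Ifitm2 and Eif2ak2 (PKR, the kinase that halts translation), by at most 0.20 on the log2 scale. These 4 were the members with both libraries above the control, which held for 44.6% of all entries.

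In shEVX1, again 0 of 30 members were called by limma, where 0.00669% of all entries were, and 2, Oasl2 and Ifitm3, had an unadjusted p under 0.05, where 3.32% of all entries did. The median log2 change was -0.29 against 0.05 over all entries, with 23 members lower and 7 higher. Both shEVX1 libraries lay below the single control for 21 members, which held for 26.5% of all entries. Oasl2 was at 1.37 and 1.81 FPKM in shEVX1 against 3.97 FPKM in shCtrl_EVX1, Isg15 at 2.54 and 4.06 FPKM against 7.0 FPKM, and Oas1a at 0.892 and 0.639 FPKM against 1.57 FPKM. Ifitm3 was at 199 and 198 FPKM in shEVX1 against 307 FPKM in shCtrl_EVX1 (log2 change -0.63 ± 0.22, adjusted p = 1 by limma). Between the shEVX1 replicates, 0 of 24 members at 1 FPKM differed more than 2-fold. Ifi27l2a was at 2.18 and 2.75 FPKM in shEVX1 against 4.47 FPKM in shCtrl_EVX1, while Psmb9 was slightly above its control, at 4.12 and 3.90 FPKM in shEVX1 against 3.53 FPKM in shCtrl_EVX1, and so was Ifitm2.

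The Lhx1os experiment has 1 library in each arm and no test. Of 30 members with at least 1 FPKM in either library, 11 were lower by more than 2-fold on the log2(FPKM + 1) scale and 0 were higher, where 11.2% of all such entries passed that size, 6.02% lower and 5.15% higher. In all, 27 were lower and 3 higher, with a median log2 change of -0.88 against -0.08 over all entries. Among the 11, Oas1a, Ifi27l2a, Rtp4 and Lgals3bp were under 1 FPKM in shLhx1os (0.693, 0.685, 0.122 and 0.678 FPKM). These genes passed the filter through the control alone and could only be lower, as could Ifih1. The same filter was applied to all entries. Between replicates of the 7 groups of 2 libraries, 0 to 4 members differed more than 2-fold.

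Ifi27l2a was at 0.685 FPKM in the shLhx1os library and 16.2 FPKM in shCtrl_Lhx1os, a control-to-knockdown ratio of 23.7. Usp18 was at 1.06 FPKM in the shLhx1os library and 13.3 FPKM in shCtrl_Lhx1os, and Oas1a at 0.693 and 8.09 FPKM, shLhx1os first. Bst2 was at 58.4 FPKM in shLhx1os against 331 FPKM in shCtrl_Lhx1os, and Isg15 at 3.94 against 19.6 FPKM. The other members past 2-fold were Stat2, Ifitm1, Trim25 (the ubiquitin ligase of RIG-I), Rtp4, Lgals3bp and Psmb9, all lower in shLhx1os. Stat2 stood at 5.41 FPKM in the shLhx1os library and 15.6 FPKM in shCtrl_Lhx1os.

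Among the 7 antigen presentation genes, 6 were lower and 1 higher, and Psmb9, at 1.41 FPKM in the shLhx1os library and 6.02 FPKM in shCtrl_Lhx1os, was the one past 2-fold. Tap1 was at 12.8 FPKM in the shLhx1os library and 13.3 FPKM in shCtrl_Lhx1os, Tapbp at 68.4 and 69.1 FPKM, and B2m at 160 and 94.5 FPKM, each with shLhx1os first. Gbp2 and Ifit2 were the other members above the control, Gbp2 at 55.1 FPKM in the shLhx1os library and 35.7 FPKM in shCtrl_Lhx1os. H2-K1 and H2-D1 were at 53.2 and 56.7 FPKM in the shLhx1os library and at 77.2 and 82.1 FPKM in shCtrl_Lhx1os. Cell type markers differed in the same pair: the 7 early mesoderm markers summed to 53.1 FPKM in the shLhx1os library and 271 FPKM in shCtrl_Lhx1os, with Hand1 at 10.5 and 204 FPKM, and the 6 neural progenitor markers summed to 56.5 FPKM in the shLhx1os library and 6.81 FPKM in shCtrl_Lhx1os. Only 1 of these 6 neural progenitor markers reached 1 FPKM in either library, so their sum in shLhx1os is mostly that gene. The 10 fibroblast markers summed to 66.5 and 57.9 FPKM, the 6 endothelial markers, of which Emcn was at 0, to 6.81 and 14.2 FPKM, and the 11 leukocyte markers to 21.0 and 29.2 FPKM, shLhx1os first. Their part in the members' values was not tested.

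**Figure D3:**
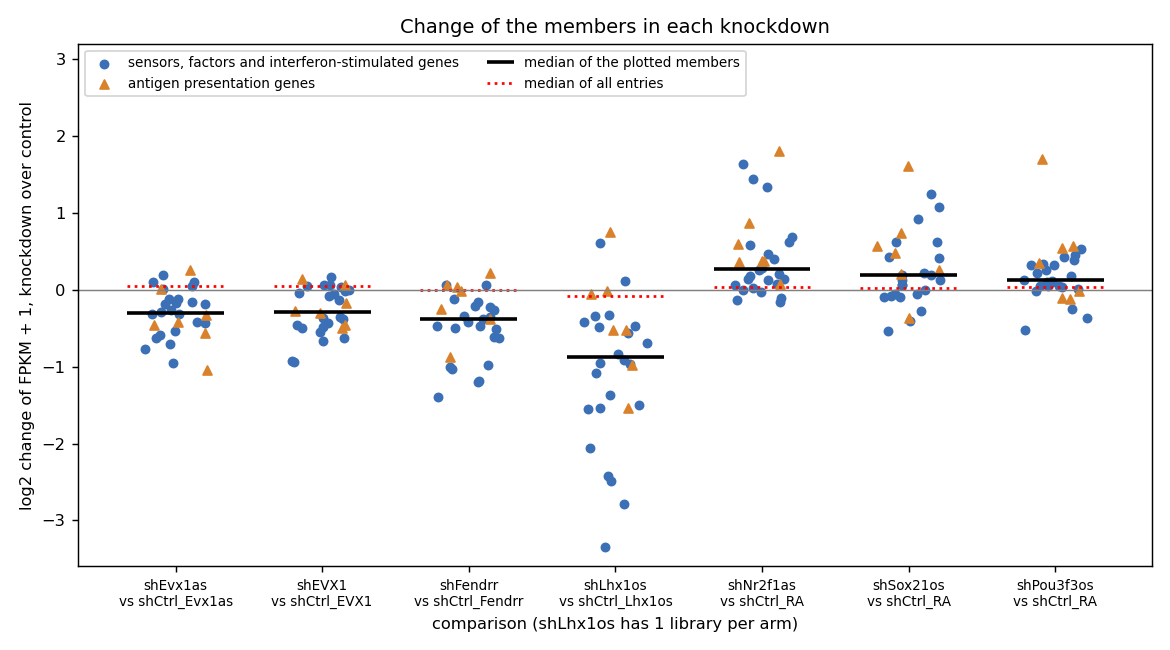
Change of each member (points) in each knockdown against its own control, as log2 of FPKM + 1 (y axis), by comparison (x axis); bars are the medians of the plotted members and dotted bars those of all entries. The member medians are -0.30, -0.29, -0.38 and -0.88 in the 4 LIF-withdrawal experiments and 0.27, 0.19 and 0.12 in the 3 retinoic acid comparisons, which share 2 controls.

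The LIF-withdrawal experiments share no library, so their directions can be set together. In shEvx1as, shEVX1 and shLhx1os the directions of all members rest on 1 control library each. Of the 30 tested members, 16 were lower in each of shEvx1as, shEVX1 and shFendrr, where 9.46% of all entries were, and 16 were lower in all 4 experiments with shLhx1os included, where 7.19% of all entries were. B2m was the single member higher in all 4, by at most 0.07 on the log2 scale in shEvx1as, shEVX1 and shFendrr. Averaged over shEvx1as, shEVX1 and shFendrr, 28 members were lower and 2 higher, with a median log2 change of -0.29 against 0.03 over all entries. By limma 0 members were called on this average, where 0.0468% of all entries were, and 12 members had an unadjusted p under 0.05, all lower, where 2.49% of all entries did. Ifi27l2a had an average change of -1.0 ± 0.30, Psmb8 of -0.80 ± 0.27, Oasl2 of -0.78 ± 0.21, Oas1a of -0.61 ± 0.14 and Parp14 of -0.53 ± 0.17 (SE), with adjusted p between 0.377 and 0.661 by limma. Early mesoderm markers were also lower on this average, all 7 of them, with a median log2 change of -0.61. By limma 0 of them were called and 3 had an unadjusted p under 0.05. Their part in the members' values was not tested.

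In retinoic acid culture more members lay above the controls than below them. All 3 comparisons there use the same 2 controls, so they are given side by side and not counted together. In shNr2f1as, 1 of 30 tested members was called by limma, Gbp2, where 0.676% of all entries were called, 0.422% as higher. Gbp2 rose, with 3.07 and 2.30 FPKM in the shNr2f1as libraries, against 0.264 and 0.108 FPKM in shCtrl_RA (log2 change 1.63 ± 0.28, adjusted p = 0.0426 by limma). Both shNr2f1as libraries were above both controls and below the 23.8 to 91.0 FPKM of this gene in LIF withdrawal. The call was lost in 11 of 20 alternatives, with adjusted p between 0.0632 and 0.168 by limma. These were no filter on low values, the experiment modelled alone, and leaving out either library of shNr2f1as, shPou3f3os, shEVX1 or shCtrl_Fendrr, or shCtrl_RA replicate 2.

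For 8 members the unadjusted p in shNr2f1as was under 0.05, all higher, where 10.5% of all entries reached this. The median log2 change was 0.27 against 0.04 over all entries, with 26 members higher and 4 lower, and 15 had both libraries above both controls, which held for 25.5% of all entries. B2m was at 26.4 and 24.4 FPKM in the shNr2f1as libraries, against 15.6 and 2.39 FPKM in shCtrl_RA (log2 change 1.81 ± 0.52, adjusted p = 0.113 by limma). Irf1, the interferon gamma target with a gamma-activated site shown above, was at 15.6 and 28.2 FPKM in the shNr2f1as libraries, against 4.95 and 10.1 FPKM in shCtrl_RA (log2 change 1.44 ± 0.37, adjusted p = 0.0889 by limma). Bst2 was at 69.1 and 90.6 FPKM in the shNr2f1as libraries, against 21.0 and 45.0 FPKM in shCtrl_RA, and Tapbp at 10.9 and 13.0 FPKM against 6.56 and 5.61 FPKM. All 4 genes were clear of their controls without passing the adjusted test in this model. All 7 tested antigen presentation genes were higher, with a median of 0.38, while Isg15 and Usp18 were near the floor, at no more than 0.330 FPKM in shNr2f1as and 1.10 FPKM in shCtrl_RA.

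In shSox21os, which has 1 library, 0 of 30 members were called by limma, where 0.0669% of all entries were, and 3, B2m, Irf1 and Gbp2, had an unadjusted p under 0.05, where 11.4% of all entries did. The median log2 change was 0.19 against 0.03 over all entries, with 20 members higher and 9 lower, and 19 lay above both controls, which held for 37.2% of all entries. B2m was at 21.97 FPKM in shSox21os, Irf1 at 18.2 FPKM, Bst2 at 66.2 FPKM, Gbp2 at 1.23 FPKM and Psmb8 at 1.04 FPKM, against at most 15.6, 10.1, 45.0, 0.264 and 0.336 FPKM in shCtrl_RA. Ifitm3, Tap1, Irf9 and Eif2ak2 lay below both controls, which held for 30.7% of all entries. Ifitm3 was at 90.2 FPKM in the shSox21os library, against 108 and 132 FPKM in shCtrl_RA.

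In the libraries labelled shPou3f3os, 0 of 30 members were called by limma, although 2.32% of all entries were, and 4 had an unadjusted p under 0.05, where 20.8% of all entries did. The median log2 change was 0.12 against 0.04 over all entries, with 23 members higher and 7 lower, and 11 had both libraries above both controls, which held for 31.5% of all entries. B2m was at 23.9 and 23.1 FPKM in the shPou3f3os libraries, against 15.6 and 2.39 FPKM in shCtrl_RA (log2 change 1.70 ± 0.52, adjusted p = 0.0994 by limma). H2-K1 was at 55.7 and 53.3 FPKM in the shPou3f3os libraries, against 43.1 and 30.4 FPKM in shCtrl_RA, Tapbp at 9.81 and 8.87 FPKM against 6.56 and 5.61 FPKM, and Irf1 at 10.5 and 10.9 FPKM against 4.95 and 10.1 FPKM. Ifitm3 was the 1 member below both controls, which held for 21.6% of all entries, at 78.3 and 87.7 FPKM in the shPou3f3os libraries, against 108 and 132 FPKM in shCtrl_RA (log2 change -0.52 ± 0.18, adjusted p = 0.134 by limma). Stat2 was at 8.33 and 7.64 FPKM in the shPou3f3os libraries, against 5.37 and 6.99 FPKM in shCtrl_RA.

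The value of B2m in these comparisons turns on shCtrl_RA replicate 2. At 2.39 FPKM this library was far under the 15.6 FPKM of replicate 1 and the 21.97 to 26.4 FPKM of the 5 knockdown libraries. Without shCtrl_RA replicate 1, so with replicate 2 as the only control, the log2 changes of B2m were 2.96 in shNr2f1as, 2.76 in shSox21os and 2.85 in shPou3f3os. With both controls they were 1.81, 1.61 and 1.70 in the same order. Bst2, Ifi27l2a and Isg15 also differed more than 2-fold between both controls. Embryonic stem cell markers summed to 145 to 513 FPKM in the retinoic acid knockdowns and to 132 and 666 FPKM in shCtrl_RA, and fibroblast markers, of which Col1a2 was called higher in shNr2f1as and shPou3f3os, to 19.9 to 48.3 FPKM in the knockdowns and 10.3 and 11.7 FPKM in shCtrl_RA. Their part in the members' values was not tested.

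**Figure D4:**
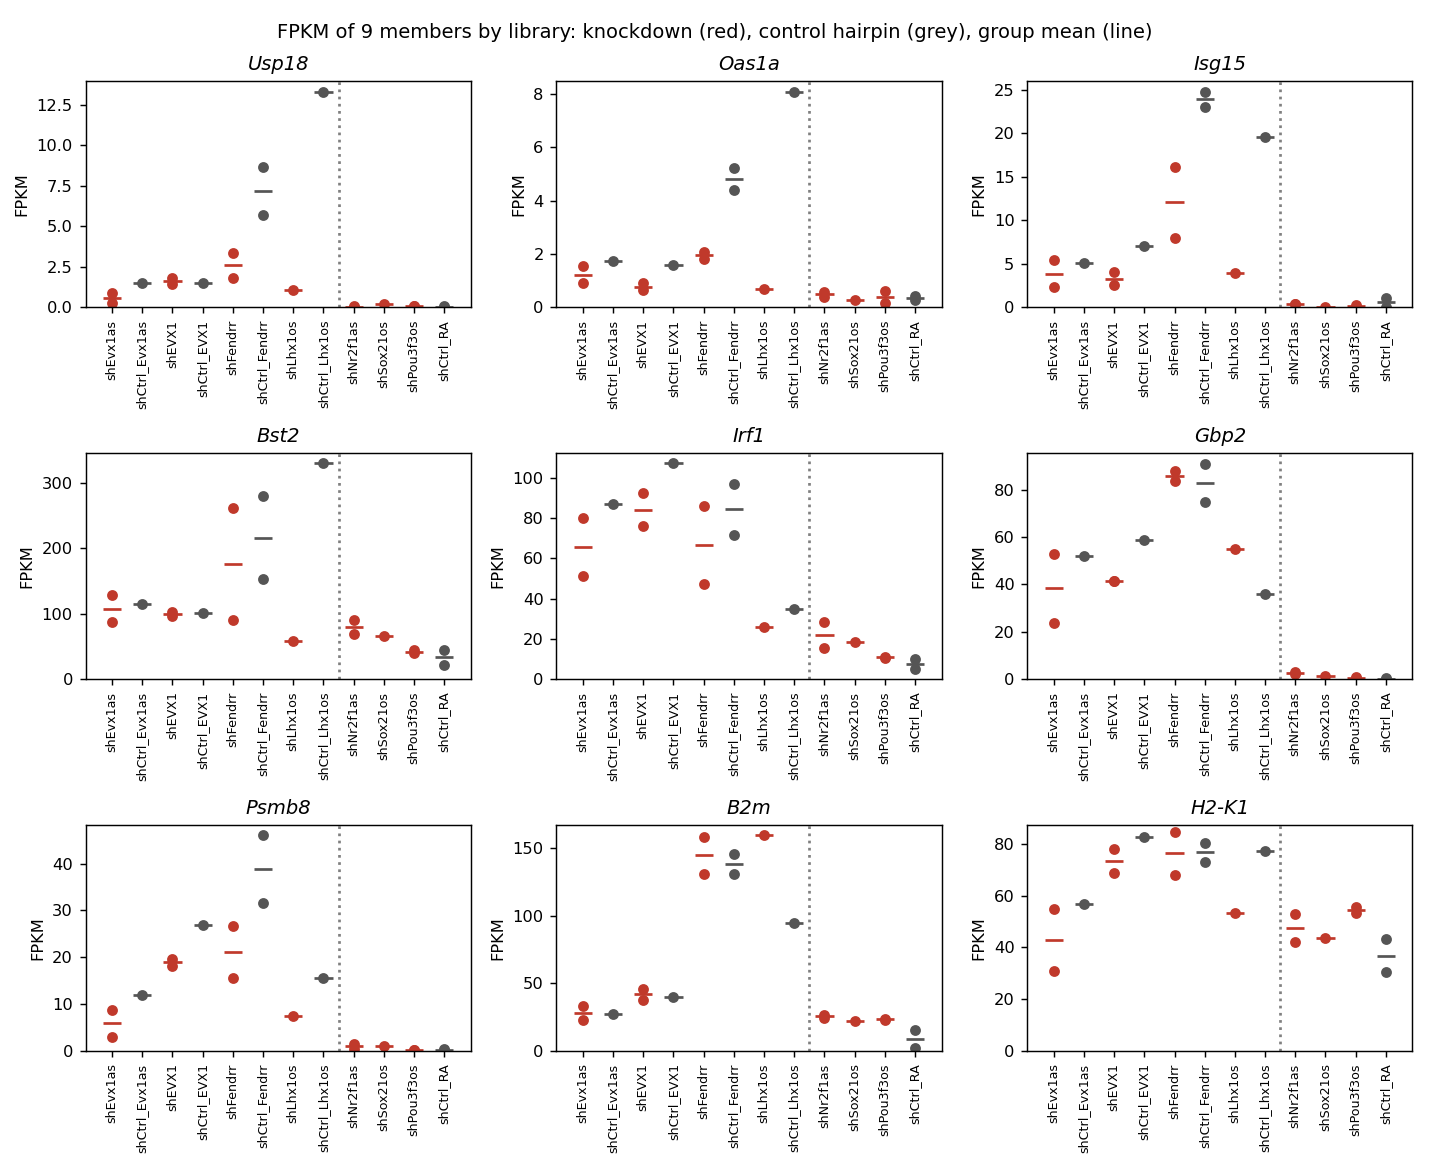
FPKM (y axis) of 9 members in every library, by group (x axis), with knockdown libraries in red, control hairpins in grey and group means as lines; a dotted line parts LIF withdrawal from retinoic acid culture. Usp18 and Oas1a are high in shCtrl_Fendrr and shCtrl_Lhx1os and below 1 FPKM in all 7 retinoic acid libraries, and B2m shows the single low control at 2.39 FPKM.

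The difference between the mean effect of the 3 LIF-withdrawal knockdowns and that of the 3 retinoic acid knockdowns was tested in the same model. By limma 0 members were called, where 0.194% of all entries were, and 18 of the 30 had an unadjusted p under 0.05, all lower in LIF withdrawal, where 9.38% of all entries did. The median difference over the members was -0.60 on the log2 scale, against -0.01 over all entries, and 27 members were negative. Cell type markers differed too, with medians of -0.60 for early mesoderm markers (6 of 7 negative), -0.43 for fibroblast markers (6 of 7 negative) and 0.43 for neural progenitor markers (1 of 5 negative). Their part in the members' values was not tested. Gbp2 had the smallest adjusted p (-1.30 ± 0.30, adjusted p = 0.0751 by limma). B2m differed by -1.67 ± 0.56 and Irf1 by -1.46 ± 0.40, with adjusted p of 0.159 and 0.101 by limma. The 3 retinoic acid effects share both shCtrl_RA libraries, in which B2m was at 15.6 and 2.39 FPKM, so its difference turns on replicate 2. In Parp9, Parp14 and Ifih1 each knockdown library lay on its own side of every control of its experiment in both cultures. This pattern was not counted over all entries, so it is not known to be particular to these members. Some gaps were small, as for Parp9 at 14.6 FPKM in shFendrr replicate 1 against 14.7 FPKM in shCtrl_Fendrr replicate 1. Parp14 and Ifih1 were near the floor in retinoic acid culture, at no more than 0.388 and 0.154 FPKM. Parp9, Parp14 and Ifih1 differed by -0.72 ± 0.22, -0.74 ± 0.28 and -0.47 ± 0.19, and their adjusted p lay between 0.132 and 0.214 by limma. Target, line and medium cannot be told apart in this difference.

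Upstream of the members, interferon transcripts were scarce. Of 10 interferon genes in the table, 0 reached 1 FPKM in any library, and Ifnb1, Ifna1, Ifna2 and Ifne were listed at 0 in all 19. The receptors were present throughout. Ifnar1, a subunit of the type I receptor, lay between 7.06 and 11.9 FPKM over all libraries, and Ifngr2, of the type II receptor, between 4.04 and 14.3 FPKM. Of 13 tested receptor, kinase and feedback genes, 0 were called by limma in shEvx1as, shEVX1, shFendrr, shNr2f1as and shSox21os, where 0.00669% to 0.676% of all entries were. In these comparisons 0 to 3 had an unadjusted p under 0.05, where 3.32% to 18.1% of all entries did. In shPou3f3os 9 of the 13 were higher and 4 lower. There 4 had an unadjusted p under 0.05, all higher, where 13.2% of all entries did. Jak2 was the 1 gene called in shPou3f3os, where 2.32% of all entries were. It was higher, with 3.79 and 4.61 FPKM in those libraries against 1.80 and 1.04 FPKM in shCtrl_RA (log2 change 1.12 ± 0.20, adjusted p = 0.0298 by limma).

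Of 33 further interferon-stimulated genes in the table, 22 were tested and 10 stayed below 1 FPKM everywhere, Mx1 and Ifi44 among them. In shFendrr 19 of these 22 were lower and 3 higher, with a median log2 change of -0.32, and 0 were called by limma, with 6 lower at an unadjusted p under 0.05, where 4.26% of all entries were. In shCtrl_RA against the LIF-withdrawal controls 16 were called lower and 0 higher, where 29.5% of all entries were lower and 30.3% higher. Genes that passed the filter through LIF-withdrawal libraries alone had to differ. They were not set apart in this count, nor in that of the antigen presentation genes below. Irgm1, an immunity-related GTPase, was at 0.105 and 0.0799 FPKM in shCtrl_RA, against 6.99 to 27.7 FPKM in the LIF-withdrawal controls. Of 17 further tested antigen presentation genes, 11 were called lower and 2 higher in that comparison. Psmb10, the remaining inducible proteasome subunit, was at 6.67 and 7.68 FPKM in shCtrl_RA against 29.5 to 84.7 FPKM in the LIF-withdrawal controls, and Psmb7, the constitutive subunit it replaces, was also called lower, at 86.0 and 28.2 FPKM in shCtrl_RA against 155 to 254 FPKM in the LIF-withdrawal controls. Psmb6, the constitutive subunit that Psmb9 replaces, was called higher, at 369 and 389 FPKM in shCtrl_RA against 173 to 265 FPKM in the LIF-withdrawal controls. These lists were chosen with earlier results of these data known.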

How the data were processed

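The authors deposited 1 table of FPKM values per gene for 19 libraries. Per the labels' protocols, polyadenylated RNA was selected and made into stranded libraries. The submitters' processing notes name CASAVA, TopHat2 2.0.11, mm10 and mm9. The coordinates are those of mm9; quantifier, annotation and strand setting: not given in the sources used here. Entries that reached 1 FPKM in 2 or more libraries were tested as log2(FPKM + 1) with limma 3.58.1 in R 4.3.3, in 1 model of 12 group means over all libraries with 7 residual degrees of freedom and a variance prior trended on level, so groups of 1 library are assumed to vary like the others. P-values are two-sided and adjusted by Benjamini-Hochberg over all entries tested, with 0.05 as the threshold. FPKM is relative within a library, and more of some genes lowers the others. The members and lists were chosen with earlier results of these data known.

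In each comparison the text names every member called, and the 5 largest rises and 5 largest falls among members at 1 FPKM or more whose knockdown libraries all lie on 1 side of their controls. Members named beyond that rule, such as Oas1a in shFendrr, were chosen after their values were seen. The model was tested on simulated data with 200 changed genes. Across the 6 knockdown comparisons tested by limma it recovered 39% to 67% of 2-fold changes and 72% to 90% of 4-fold changes. Of its calls 2.42% to 8.28% were false. Changes of 2-fold could therefore be missed, and a count of 0 members called does not show that none changed. Alternatives were a pseudocount of 0.1, no filter, libraries rescaled to the same total, no trend, each experiment alone, a replicate block, and each replicate left out. The comparison of the controls with day 4 alone was chosen after seeing the data. Promoters and motifs were handled with Python 3.11.15 and figures with matplotlib 3.10.9.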

Additional observations from a re-analysis of the deposited data

How the results depend on the processing

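For 55 values of named members, 1070 values were computed under an alternative. None of these reversed, 1050 kept their direction and side of the threshold, 11 lost the call, all of Gbp2 in shNr2f1as, and 9 gained one. Without the filter on low values, the median log2 change was -0.10 in shEVX1, 0.14 in shNr2f1as, 0.13 in shSox21os, 0.10 in shPou3f3os and -0.56 in shLhx1os. In that setting 2 members, Irf7 and Rsad2, were called in shFendrr, where 0.311% of all entries were. In shNr2f1as 0 were called, where 0.168% of all entries were. With a pseudocount of 0.1 the median was 0.50 in shNr2f1as, 0.42 in shSox21os and 0.38 in shPou3f3os. With it 1 member was called in the difference between cultures, where 0.241% of all entries were. With libraries rescaled the median was 0.17 in shPou3f3os. With each experiment modelled alone, 0 members were called in shNr2f1as, where 0 of all entries were. Leaving out 1 replicate, the median ranged from -0.29 to -0.21 in shEVX1, 0.23 to 0.27 in shNr2f1as, 0.11 to 0.19 in shSox21os and 0.077 to 0.21 in shPou3f3os, and the number called was 0 to 4 in shFendrr, 0 to 2 in shNr2f1as, 0 to 1 in shSox21os, 0 to 2 in shPou3f3os and 0 to 2 in the difference between cultures. The causes were not tested.

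Deviations of same-numbered libraries from their group means correlated at 0.35 (shFendrr and its control), 0.30 (shNr2f1as and shCtrl_RA) and -0.02 (shPou3f3os and shCtrl_RA). The labels do not say what a number shares, so no pairing was assumed. With a replicate block, 3 members were called in shNr2f1as, Gbp2, Irf1 and Bst2, where 2.22% of all entries were. In the difference between cultures 1, Irf1, was called, where 1.27% of all entries were. Depth could be estimated only roughly, so a member listed at 0 may lie below detection.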

Other observations

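Inflammatory targets of NF-kB were lower in shCtrl_RA than in the LIF-withdrawal controls, with 7 of 9 tested genes called lower by limma, and MHC class II genes likewise, with 4 of 5, where 29.5% of all entries were called lower. Genes of both lists that passed the filter through LIF-withdrawal libraries alone had to differ, and they were not set apart in these counts. The 12 NF-kB targets summed to 34.3 and 47.5 FPKM in shCtrl_RA, against 87.4 to 124 FPKM in the LIF-withdrawal controls. The 7 class II genes, which present peptides to helper T cells, summed to 3.59 and 4.32 FPKM in shCtrl_RA, against 14.0 to 26.7 FPKM in the LIF-withdrawal controls.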
